A study of Homo sapiens with 12 samples.

Results

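Retained-intron peaks are the m6A peaks to which the deposited peak lists attach a transcript of the annotation class retained intron, an isoform of a gene that still holds intron sequence after splicing. All peaks of that transcript type were taken, 6724 of 39492 peaks in the list of control cells and 5047 of 28891 in the list of FTO knockdown cells. Of the 8687 rows with a gene name in the authors' deposited table of differential peaks, the 459 with the same chromosome, start and end as one of these peaks were added. The cells were of HGC27, a gastric carcinoma line, and were either labelled WT and Con or had FTO, an RNA demethylase, lowered by short hairpin RNA. The genotype label calls the second group FTO-KO and the protocol a knockdown, and they are called knockdown cells here. Each condition had 3 libraries of RNA fragments bound by an m6A antibody (IP) and 3 of the same fragments before binding (input), making 12 libraries from poly(A) RNA. Of these, the 6 input libraries have values of their own. Each condition had 1 peak list, so a peak value has no replicate. The labels name neither the hairpins nor separate cultures. A p-value of the expression test thus speaks of the spread among input libraries alone, and that spread may be technical. What spread the authors' p-values of peaks and differential peaks measure is not known.

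An intron that stays in a polyadenylated transcript usually brings in stop codons, and many such transcripts are kept in the nucleus or removed by nonsense-mediated decay. Genes for splicing factors are known for this, since retention of their own introns lowers the amount of protein made. m6A is written on nascent RNA by the METTL3 and METTL14 complex, mostly at an A within the letters GGAC or a close relative, and is found above all near stop codons and in long last exons. FTO and ALKBH5 are the enzymes that remove it, both found mostly in the nucleus.

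The letters under some of these peaks can be read, because a few peaks reach into the 300 bases around a gene's start (250 before to 50 after) for which RefSeq sequence of build GRCh38.p14 was given. They are shown to let the m6A core letters be seen in their place. Each line gives 29 bases on the gene's strand, with the core GGAC and the base after it in capitals.
CREBZF: cttaccttagtgGGACAtcttcaccggac
LHX9: cgggagtttcagGGACTtcttgggagcct
ANTKMT: ggtccgcagagcGGACCaacggagccgac
LINC02593: ggcctgcagcctGGACCtggcccgggttg
CUL9: gccaggacggcgGGACCggccgctgggtc
TMEM214: cgcgctcgcgccGGACCggaaagccgggg
These stretches lie at chr11:85663721-85663749, chr1:197912310-197912338, chr16:720986-721014, chr1:919825-919853, chr6:43182192-43182220 and chr2:27032958-27032986, in the order printed. Their offsets from the RefSeq start used were -136, -142, -148, -149, 9 and 6 bases, where a negative offset is before that start. The lists place the CREBZF peak in a 3' UTR. The peak over the CREBZF letters had a fold enrichment, the authors' ratio of IP over input, of 22.9 in the control list and 47.1 in the knockdown list. CREBZF is a bZIP protein that binds the coactivator HCFC1. Over CUL9, a cullin, the values were 13.6 and 22.4, and over TMEM214, an endoplasmic reticulum membrane protein, 7.76 and 14.1. The LHX9 peak, at a LIM homeobox gene, was in the control list with 23.7. No knockdown peak was listed for its printed letters, while the knockdown peak that overlapped the control peak elsewhere had 5.15. Such peaks were few, with 100 control and 79 knockdown members touching the window of their own gene, of which 35 and 23 held GGAC under the peak. The letters alone are common. GGAC was in 66.3% of all 35116 windows and its reverse complement GTCC in 66.1%, while the longer GGACT, which contains GGAC, was in 25.3%. A match is a description of the letters, not of a methylated base.

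Peaks of this type also covered miRNA hairpins that lie in exons of their host genes on the same strand. The mature miRNAs of 4 such hairpins are shown from RefSeq (GRCh38.p14), with the seed, bases 2 to 8, in capitals, because here a sequence with a function of its own lies in the methylated stretch.
hsa-miR-3618: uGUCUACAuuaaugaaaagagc
hsa-miR-3652: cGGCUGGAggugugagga
hsa-miR-6787-5p: uGGCGGGGguagagcuggcugc
hsa-miR-6787-3p: uCUCAGCUgcugcccucuccag
hsa-miR-7108-3p: aCCCGCCCgucuccccacag
No seed was shared among them. MIR3618 (chr22:20085746-20085833) lies in the 5' UTR of DGCR8, the partner of DROSHA that binds primary miRNA hairpins. The control peak there held all 88 bases of the hairpin, with a fold enrichment of 6.66, and the overlapping knockdown peak had 8.67. MIR3652 (chr12:103930425-103930555), in HSP90B1, a chaperone of the endoplasmic reticulum, lay whole under a control peak of 4.38 and a knockdown peak of 8.54. MIR6787 (chr17:82236668-82236728), in SLC16A3, the lactate exporter MCT4, lay whole under peaks of 28.3 and 29.7. Of MIR7108 (chr19:2434914-2435000), in LMNB2, a nuclear lamin, 46 of 87 bases were covered, with 1.39 and 4.26. The libraries were made from fragments of poly(A) RNA, so these values are of the host transcripts and not of mature miRNAs.

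FTO, the targeted gene, was at 5.48, 5.68 and 5.52 FPKM in the control input libraries and at 0.786, 0.83 and 0.765 in the knockdown libraries, which is 7.00-fold lower and matches the labels. It carried no peak of the retained-intron type, and nor did HOXC8 or MDM2, which the study's title names. FPKM was used for 6396 genes, all with a differential m6A peak, and summed to between 74289 and 86902 per library, with read depth unknown. Of 12 gastric epithelial markers, 1 was in this table, MUC1, at 1.19 to 1.26 FPKM in control and 1.19 to 1.61 in knockdown libraries. Of 9 fibroblast markers, COL1A1 and THY1 were in it, with a sum of 177 to 189 in control and 153 to 170 in knockdown libraries. The sum hides opposite directions, as THY1 was at 11.8 to 12.9 FPKM in control and 14.4 to 15.4 in knockdown libraries. In the expression test 1 of these 2 markers rose and 1 fell, and after median-centring 1 rose and 0 fell. None of 9 immune markers was in the table. The part of these marker levels in the results was not tested.

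The attached transcript is not always one that the peak lies on. A peak is written as exonic blocks, and these blocks overlapped the span of the named retained-intron transcript in 3929 control members, 58.4% (95% exact binomial interval 57.2 to 59.6), and in 2888 knockdown members, 57.2% (55.8 to 58.6). Another 27.7% of control and 28.7% of knockdown members lay wholly downstream of that transcript, by a median of 2028 and 1858 bases, and 13.6% and 13.8% lay upstream of it. For the protein-coding type, downstream peaks made up 8.73% and 8.97%, and for all peaks 15.1% and 15.6%. The processed transcript type was the closest, with 22.0% and 21.5%. The named transcripts were short, with a median span of 3370 bases for control members, against 12116 for the protein-coding type. Among members annotated to an exon, the exon's transcript was the named retained-intron transcript in 456 of 2216 control and 244 of 1722 knockdown peaks. The type therefore marks the isoform that was paired with a peak, and a peak of this type is not a measurement of intron retention.

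**Figure D1:**
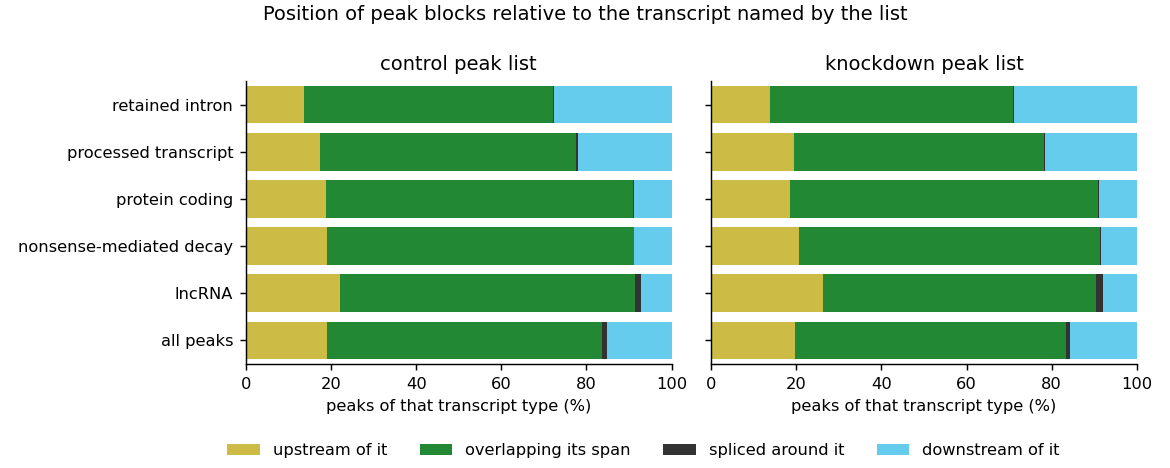
Share of peaks (x axis, %) whose exonic blocks lie upstream of, overlap, are spliced around or lie downstream of the transcript named by the peak list, for each transcript type (y axis), with the control list on the left and the knockdown list on the right. The retained-intron row has the widest downstream segment of the 5 types drawn, 27.7% and 28.7%.

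By the region the lists give, these were mainly peaks of 3' UTRs. The 3' UTR held 4191 control members, 62.3% (61.2 to 63.5), and 3076 knockdown members, 60.9% (59.6 to 62.3), where 47.6% and 46.5% of all peaks lay there. Similar shares were seen for the processed transcript type, 60.1% and 57.1%, and the nonsense-mediated decay type, 59.1% and 52.3%. The 5' UTR held 4.71% and 4.93%, against 12.6% and 13.9% of all peaks, and other exons held the remaining 33.0% and 34.1%. Of the control members downstream of their named transcript, 1668 of 1864 were in a 3' UTR. The exonic length was a median of 330 bases in the control and 299 in the knockdown list, and 33.3% and 29.1% of members joined more than 1 block.

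Fold enrichment was lower in retained-intron peaks than over all peaks of the same list. The median was 4.58 in the control list, with quartiles of 2.55 and 8.79, where all control peaks had a median of 6.11. In the knockdown list it was 5.85, with quartiles of 3.30 and 10.9, where all peaks had 7.05. Of the 5 transcript types, lncRNA peaks had the highest median in both lists, 6.84 and 7.77, and retained-intron peaks the lowest. The share with a small adjusted p was above that of all peaks, as it was for every other type drawn but lncRNA. An adjusted p of at most 1e-05 was given for 4577 control members, 68.1%, where the background over all control peaks was 61.7%, and for 4316 knockdown members, 85.5%, where it was 81.4%. These are the authors' values from 1 list per condition, and values of the 2 lists are set side by side without reading a change from them.

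**Figure D2:**
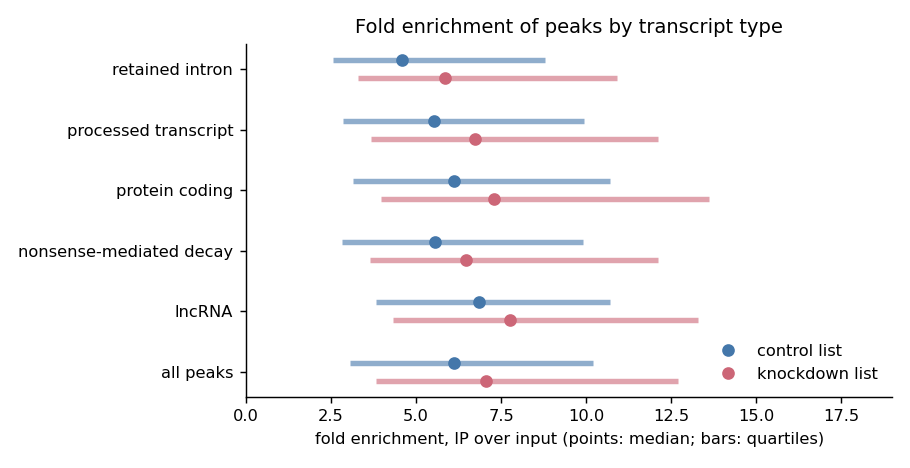
Fold enrichment of peaks (x axis, IP over input) by transcript type (y axis), with points at the median and bars from the lower to the upper quartile, blue for the control and red for the knockdown list. The retained-intron points, at 4.58 and 5.85, are the leftmost of their colour.

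The host genes were nearly all protein coding. Control members fell in 3785 genes, of which 3693 matched RefSeq by symbol and 98.3% of those were protein coding, against 79.8% of the matched genes of all control peaks. Knockdown members fell in 2981 genes, and 2725 genes had a member in both lists. In 51.7% of control host genes and 46.8% of knockdown host genes, other peaks of the same gene had another transcript type. A single member was found in 2102 control genes, 55.5%, and 703 had at least 3. RNF213, a very large ubiquitin ligase, had 14 members in the control and 13 in the knockdown list, and these were all of its peaks. MACF1, a linker of actin and microtubules, had 9 and 9, and NRDE2, a nuclear protein that binds the exosome helicase MTR4, had 8 and 10. KMT2A, a histone H3K4 methyltransferase, had 6 and 11, while CMYA5, a large muscle protein, had 16 and 1. These genes were picked by the number of their peaks after the values were seen. Chromosomes did not contribute evenly, as chromosome 16 held 7.12% of control members and 5.22% of all control peaks, and chromosome X held 1.40% and 3.03%.

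The control member of highest fold enrichment was on STX4, a syntaxin of the plasma membrane, with 122 over 448 exonic bases of its 5' UTR (chr16:31033474-31034121), and the overlapping knockdown peak had 58.5. ERF, an ETS family repressor, had 115 over 1500 bases of 3' UTR (chr19:42247569-42249068) in the control list. The knockdown peak of largest overlap had 20.8 (chr19:42248289-42249008), and a shorter one in the same stretch had 129 over 331 bases. A1BG, a plasma glycoprotein, also had 115, but the peak call itself named another gene there, ENSG00000268230. ANO8, an anoctamin, had 93.9 in the control and 173 in the knockdown list (chr19:17328373-17328822 in control), in the 3' UTR and 4466 bases downstream of the named transcript. INSR, the insulin receptor, had 91.7 and 50.9, NXPH3, a neurexophilin, 75.8 and 35.2, and PDE9A, a cGMP phosphodiesterase, 71.8 and 14.3. CDK11A, a kinase linked to splicing, had 64.1, and its near-identical copy CDK11B makes this value uncertain.

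In the knockdown list the highest member was on PGGHG, an enzyme that trims glucose from collagen hydroxylysine, at 346 over 659 bases (chr11:291286-291944), where the overlapping control peak had 43.8. TRIP6, an adhesion protein with LIM domains, had 145, on a peak that the call assigned to the neighbouring SLC12A9. RNF25, a ubiquitin ligase, had 137 with 46.3 in the control list, and CSNK1D, a casein kinase that acts on the circadian clock, 130 with 40.9. ARMC5 had 125 with 32.8, and ISOC2 112 with 54.7. Of the 16 peaks named here as highest in either list, ANO8 and ERF appear in both.

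Splicing genes carried such peaks, as did many other genes. Over all genes with a peak, 3785 of 18324 control and 2981 of 14170 knockdown genes had a member. Of 14 SR proteins, which bind exons and promote splicing, 4 had a member in the control list and 3 in the knockdown list, while 11 and 9 had a peak of any type. SRSF5 had 10.5 over 510 bases of its 3' UTR in control and 11.8 over 330 bases after knockdown. SRSF1 had a member in the knockdown list, at 7.82, on a peak called for another gene model, and the overlapping control peak had 4.9. Of 26 hnRNP proteins, RNA binders that often repress splicing, 11 and 6 had a member and 21 and 21 a peak of any type. HNRNPLL had 10.8 and 11.7, HNRNPA2B1 had 4.45 over 1051 bases and 4.68 over 871 bases, and HNRNPC had 4.19 and 6.13. The kinases that phosphorylate SR proteins had members in 7 and 6 of 15 genes (any peak in 13 and 11), with 20 peaks in the control and 15 in the knockdown list. CDK12 had 14.6 and 15.2, and CDK13 had 13.6 and 13.4, both in 3' UTRs. Of 51 genes of the spliceosome core, 20 and 17 had a member and 42 and 37 a peak of any type. SNRNP70, a protein of the U1 snRNP, had 20.1 in the control list and 56.5 in the knockdown list. DDX23, a helicase of the U5 snRNP, had 19.2 and 25.

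Genes already described to keep or detain introns, and genes that act on such transcripts, were covered in part. Of 21 genes with described retained introns, 11 had a control and 9 a knockdown member, while 16 and 17 had a peak of any type. NKTR, a cyclophilin with RS repeats, had its highest member at 14.0 and 16.2. CCNL2, a cyclin of splicing kinases, had 16.8 in the control list and 29.7 in the knockdown list for its highest member. Of 21 exon junction and decay factors, 7 and 7 had a member (any peak in 17 and 17), among them UPF1, the decay helicase, with 13.8 and 21.0. Of 30 genes of the nuclear exosome and RNA export, 11 and 8 did (any peak in 26 and 20), among them ZCCHC8, a subunit of the NEXT complex, with 13.1 and 16.7. Of 22 m6A writers, erasers and readers, 8 and 6 did (any peak in 21 and 19). METTL3, the catalytic writer, had 2.32 and 2.36, and VIRMA, a writer scaffold, had 6.11 and 6.05. Of 24 ferroptosis genes, 8 and 7 did (any peak in 17 and 18), among them DHODH, a mitochondrial enzyme that reduces ubiquinone, with 13.5 and 18.4, and KEAP1, which holds NRF2 low, with 6.95 and 7.40. Among marker genes, 5 and 3 of 9 fibroblast markers, 1 and 2 of 12 gastric epithelial markers and 1 and 1 of 9 immune markers had a member, while 8 and 6, 5 and 4, and 2 and 2 had a peak of any type.

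Overlap between the 2 lists was unequal, as the control list is the longer one. With at least 1 shared exonic base, 4003 control members, 59.5% (58.3 to 60.7), overlapped a knockdown peak of any type, and 4421 knockdown members, 87.6% (86.7 to 88.5), overlapped a control peak. Over all peaks the shares were 57.9% and 88.8%. The partner was of the retained-intron type for 95.2% of overlapping control members. Members without a partner were short and weak. In the control list they had a median enrichment of 3.17 over 180 bases, against 5.97 over 481 bases for those with one. In the knockdown list the values were 2.99 over 121 bases and 6.44 over 330 bases. When 50% of both peaks had to be shared, the overlap was 42.4% and 56.2%.

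In the authors' deposited table of differential peaks, retained-intron peaks were more often higher than lower after knockdown. The coordinates of 300 control members, 4.46%, were rows of it, beside 4.16% of all control peaks, and of 206 knockdown members, 4.08%, beside 2.92% of all knockdown peaks. Of the 459 rows, 282 were higher after knockdown, 61.4% (56.8 to 65.9), and 177 were lower. Over all rows of the authors' deposited table, a share of 55.4% was higher and 44.6% lower, and over the rows with the coordinates of any listed peak 53.9% were higher. An adjusted p of at most 0.05 was given for 412 of the 459, 89.8%, beside 88.2% of all rows, and these split into 262 that rose and 150 that fell. The median log2 difference was 0.31, beside 0.28 over all rows and 0.22 over the rows with the coordinates of any listed peak. By a factor of 2 or more, 63 rows were higher and 18 lower. Together these were 17.6% of the 459, beside 26.5% of all rows and 18.0% of the rows with the coordinates of any listed peak.

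Which list holds a row's coordinates went with its direction. Of 253 rows with coordinates in the control list alone, 85 were higher after knockdown in the authors' deposited table, 33.6%, where the background over such peaks of any type was 30.2%. Of 158 rows in the knockdown list alone, 154 were higher, 97.5%, where the background was 97.2%. Of 48 rows in both, 43 were higher, 89.6%, where it was 85.1%. Coordinates in 1 list alone do not mean that the other list had no peak there, as SRPK1 shows, a case given among the gene lists. Rows that overlapped their named transcript were higher in 193 of 287 cases, 67.2%, those downstream of it in 66 of 127, 52.0%, and those upstream in 21 of 42. This split by position was not made over all rows, for other types or by list, so it is not read as a trait of retained-intron peaks. The 3' UTR held 327 rows, 71.2%, beside 54.4% of all rows and 59.6% of the rows with the coordinates of any listed peak. Among such listed rows, the share was 71.5% for the processed transcript type and 67.5% for the nonsense-mediated decay type.

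**Figure D3:**
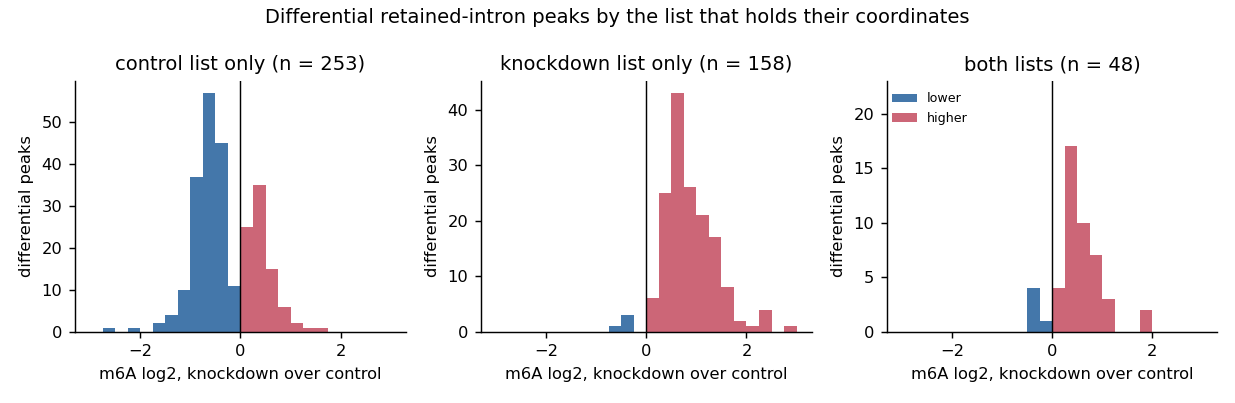
Number of differential retained-intron peaks (y axis) by the authors' log2 m6A value, knockdown over control (x axis), for rows with coordinates in the control list alone, the knockdown list alone or both. Blue bars are lower and red bars higher after knockdown. The knockdown-only panel has 154 of 158 rows above 0, and the control-only panel 85 of 253. The lists and the log2 values come from the same libraries, so the panels are not independent of direction.

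The 10 largest rises in the authors' deposited table lay between 1.55 and 2.45 on the log2 scale. KIF1A, a kinesin of axonal transport, rose by 2.42 on the log2 scale in its 3' UTR (chr2:240716401-240716761, adjusted p 7.94e-47 in the authors' deposited table), with an enrichment of 6.15 in the knockdown list and no overlapping control peak. RNF123, a ubiquitin ligase, also rose by 2.42 over 90 exonic bases. PPP1R16A, a phosphatase subunit, rose by 2.45 in the authors' deposited table, but its peak was called for ENSG00000255182, spliced around the named transcript. GATD1 rose by 2.19. ZC3H18, which links the cap-binding complex to the exosome, rose by 1.89 with an adjusted p of 6.31e-59 in the authors' deposited table, beside enrichments of 2.78 in the control and 9.81 in the knockdown list. UBN1, a subunit of the HIRA histone chaperone, rose by 1.87, with 5.54 and 28.9. MTG1, a mitochondrial GTPase, rose by 1.89, with 3.05 and 11.4. RHBDD3, RFNG, which adds sugar to Notch, and ARHGAP27, a GTPase-activating protein, rose by 1.57, 1.57 and 1.55.

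Falls were smaller. KIF13A, another kinesin, fell by 2.14 in its 3' UTR (chr6:17951148-17951358, adjusted p 0.011 in the authors' deposited table), with 7.64 in the control list and no overlapping knockdown peak. ATP5PD, a subunit of ATP synthase, fell by 1.55 with an adjusted p of 4.47e-07 in the authors' deposited table, beside enrichments of 11.0 in the control and 2.28 in the knockdown list. HIKESHI, which carries HSP70 into the nucleus, fell by 1.38, and CYB5R2, a cytochrome b5 reductase, by 1.27. FAHD2A fell by 1.09, with a near-identical copy, FAHD2B, that makes the value uncertain. RABL6 and ROCK1, a kinase of the actin cytoskeleton, both fell by 1.09 in the authors' deposited table, PODXL, a sialomucin, by 1.05, and MEF2A, a transcription factor, by 0.999. The row of lowest value, IRF1 at -2.74, had an adjusted p of 0.112, and that of highest value, GPRASP1 at 2.82, a gene mean of 0.188 FPKM, so both lay outside the rule for named peaks and are named after their values were seen.

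Among the gene lists, 11 genes had a differential row. NKTR fell by 1.22 in its 3' UTR (chr3:42632683-42632953, adjusted p 2.14e-05 in the authors' deposited table), beside enrichments of 5.59 in the control and 2.31 in the knockdown list. Among SR protein kinases, SRPK1 fell by 0.46, with 5.14 and 4.29, although its coordinates were in the control list alone, and CLK3 rose by 0.41, with 3.6 and 3.94. HNRNPC rose by 0.35 in the authors' deposited table (adjusted p 7.94e-39), with 4.19 and 6.13 over the same 360 bases. Of decay factors, SMG5 rose by 0.22. Of m6A genes, IGF2BP3, a reader, fell by 0.64 with 4.80 and 2.86, and ALKBH5, the other eraser, fell by 0.48 (chr17:18209716-18209954, adjusted p 8.32e-08 in the authors' deposited table) with 8.19 and 4.68. SRRM2 at 0.21 (adjusted p 0.0933), RBM25 at -0.74 (0.104) and THY1 at 1.39 (0.0537) did not pass 0.05 in the authors' deposited table.

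Expression of the host genes was compared in the input libraries. The 459 rows belonged to 418 genes, of which 387 had a mean of at least 1 FPKM and entered limma's test on log2(FPKM + 1) with all 4515 such genes. Of these 387, 256 passed an adjusted p of 0.05, 66.1%, where the background over all tested genes was 62.4%. They split into 111 that rose, 28.7% beside a background of 24.5%, and 145 that fell, 37.5% beside 37.9%. Of the called genes 43.4% had risen, beside 39.3% of the called genes among all tested genes. After centring each library on its median the share was 57.3%, beside 55.4%. By the q-values in the authors' deposited table it was 64.1%, for which no share over all tested genes was taken. The 2 groups of libraries did not overlap in 282 of the 387 genes, 72.9%, beside 67.8% of all tested genes. Changes of at least 1 on the log2 scale were 1 rise and 2 falls among the host genes, beside 0.864% of all tested genes. The median log2 difference was -0.07 for the host genes and -0.07 for all tested genes. Fewer cells of a kind and less RNA per cell cannot be told apart in such bulk libraries.

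KRT80, an epithelial keratin, rose most. It was at 0.566, 0.646 and 0.882 FPKM in the control libraries and at 7.89, 7.36 and 7.30 in the knockdown libraries, so the groups lay far apart. This is a 10.8-fold higher mean and a log2 difference of 2.33 ± 0.0744 (SE), with an adjusted p of 1.23e-06 by limma. Its m6A row, in the 3' UTR (chr12:52170909-52172210), was higher by 1.5 in the authors' deposited table, and its peaks had enrichments of 4.39 and 20.5. SLC7A6, an amino acid transporter, went from 15.9 ± 0.151 FPKM (SD, n = 3) to 29.2 ± 0.563. TUBB4B, a beta-tubulin, was at 93.5, 94.5 and 99.9 FPKM in control and at 158, 158 and 160 in knockdown libraries. PTDSS1 and PTDSS2, the pair of phosphatidylserine synthases, both rose, from means of 23.1 to 36.6 and of 3.99 to 6.91 FPKM. CCDC86 rose from 17 to 27.5, EIF4E2, a cap-binding protein that represses translation, from 4.98 to 8.46, and WDR81 from 2.49 to 4.47. These genes were picked among those whose groups do not overlap, so all 3 knockdown libraries lay above all 3 control libraries by that choice.

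COL6A3, a collagen VI chain, fell most, from 16.2, 15.6 and 15.8 FPKM in control to 3.54, 3.36 and 3.32 in knockdown libraries. The groups lay far apart, and the log2 difference was -1.94 ± 0.0415 (SE), with an adjusted p of 3.10e-07 by limma. Its m6A row was higher by 0.63 in the authors' deposited table. MTSS1, an actin-bundling membrane protein, fell from 19.5 ± 0.533 to 8.30 ± 0.236 FPKM (SD, n = 3), and its row was lower by 0.72. PDIA4, a disulfide isomerase of the endoplasmic reticulum, was at 156, 151 and 141 in control and 79.3, 83.4 and 81.4 in knockdown libraries. NKD2, a Wnt inhibitor, fell from a mean of 37.2 to 19 FPKM and ADGRB2, an adhesion receptor, from 7.28 to 3.31. SCN4B, a sodium channel subunit, fell from 5.57 to 2.49 and SIAE, a sialic acid esterase, from 2.76 to 0.947. FAM86B1 fell from 2.62 to 0.898, and its near-identical relatives make this value uncertain. These falls were picked by the same rule, so the lack of overlap between the 2 groups was set by the choice.

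**Figure D4:**
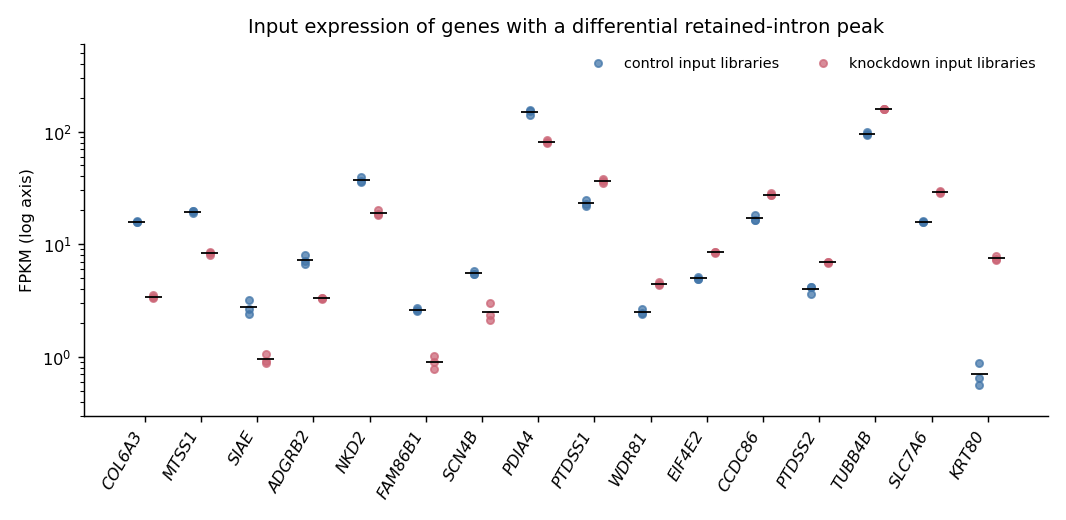
FPKM on a log axis (y) of the 8 falls and 8 rises of largest size among genes with a differential retained-intron peak (x), with a point per input library, 3 control in blue and 3 knockdown in red, and a line at each mean. Genes with overlapping groups were left out by the rule of choice. COL6A3 at the left went from 15.9 to 3.41 and KRT80 at the right from 0.698 to 7.52.

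Genes of the lists moved less. HNRNPC was at 69.2, 67.6 and 65.1 FPKM in control and 51.4, 57.6 and 57.3 in knockdown libraries, and fell by 0.28 on the log2 scale (adjusted p 0.00262, limma) while its m6A row rose. NKTR fell by 0.48 (adjusted p 0.000606, limma), from 2.54 ± 0.199 to 1.54 ± 0.164 FPKM (SD, n = 3). SMG5 rose from 33.3 ± 2.42 to 51.2 ± 1.56 (SD, n = 3), as did SRRM2, from 49.1 to 60.1. ALKBH5 was at 58.4, 58.2 and 63.9 in control and 54.3, 52.2 and 54.1 in knockdown libraries. Its fall of 0.16 passed the test (adjusted p 0.0169, limma), but did not after median-centring (adjusted p 0.288) or without knockdown library 2 (adjusted p 0.0600). The falls of SRPK1 (0.20) and IGF2BP3 (0.16) were lost with median-centring as well, at adjusted p of 0.148 and 0.325 by limma. Both were also lost when control library 1 or 2 or knockdown library 1 or 3 was left out, at adjusted p between 0.0554 and 0.139. CLK3 (-0.12) did not pass, and RBM25 (-0.15, adjusted p 0.0501) passed only without control library 3 (0.0147) or knockdown library 2 (0.0388), or with a pseudocount of 0.1 (0.0488).

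Beyond the genes that carry such peaks, most lists had few tested members. Over all tested genes 24.5% rose and 37.9% fell, and each count is followed in parentheses by its value after median-centring where that differs. Of 19 tested spliceosome genes 9 rose and 4 fell (10 and 3), with a median log2 difference of 0.08 beside -0.07 over all tested genes. Of 9 exon junction and decay factors 4 rose and 0 fell (7 and 0), and of 9 exosome and export genes 6 rose and 0 fell. Of 12 m6A genes 1 rose and 6 fell (2 and 3). Of 11 hnRNP genes 1 rose and 4 fell (3 and 3). Of 3 SR proteins 2 rose, of 6 SR protein kinases 3 fell (1), of 8 genes with described retained introns 3 rose and 2 fell, and of 10 ferroptosis genes 4 rose and 2 fell (5 and 2).

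m6A and expression differences were set side by side for the rows whose gene was tested. Of 264 rows higher after knockdown in the authors' deposited table, 30.7% had a gene that rose and 33.0% one that fell. Of 161 lower rows, 23.6% had a gene that rose and 47.2% one that fell. Over all rows of the authors' deposited table the shares were close to these, at 29.8% and 32.8% for higher rows and 20.8% and 43.8% for lower ones. Across the 425 rows, Spearman's rank correlation was 0.19 and Pearson's r 0.15, and over all 6379 rows with a tested gene 0.17 and 0.14. Rows share genes and the same input libraries, and genes are not independent replicates, so these describe the table only. Among the named peaks, KIF1A and RNF123 had higher m6A and lower expression, with log2 expression differences of -0.57 and -0.29, while GATD1 and UBN1 rose in both, at 0.54 and 0.22. RABL6 and PODXL had lower m6A and higher expression, at 0.34 and 0.24, and ROCK1 and FAHD2A fell in both, at -0.67 and -0.65.

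**Figure D5:**
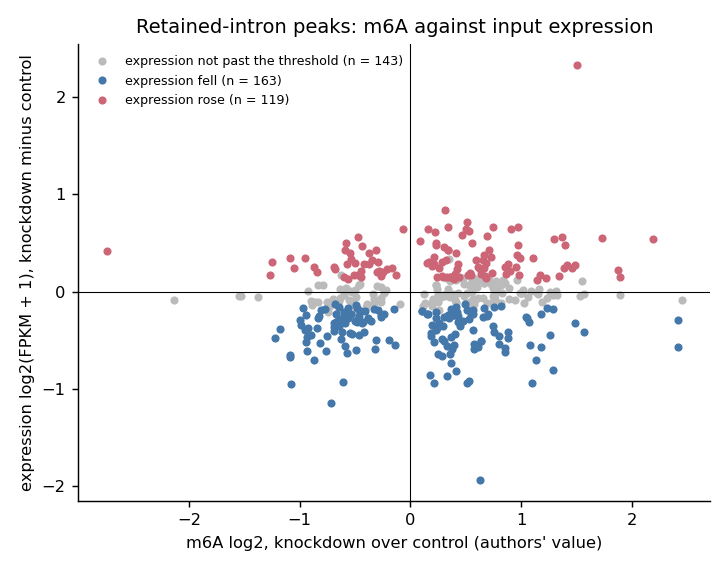
The authors' log2 m6A value, knockdown over control (x axis), against the log2(FPKM + 1) difference of the host gene, knockdown minus control (y axis), for 425 differential retained-intron peaks. Each point is a row, red where its gene rose, blue where it fell and grey where it did not pass. All 4 quadrants are filled, with 81 and 87 rows whose gene rose or fell on the right and 38 and 76 such rows on the left.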

How the data were processed

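MeRIP-seq (m6A antibody IP and input) of HGC27 cells was grouped by sample titles. Per the submitters' processing notes, which give no roles, the tools were HISAT2 2.0, Bowtie 0.12.2 and StringTie 1.3.0, and the build was mm8, a mouse build. The gene identifiers are human, and 22.5% of 10252 protein-coding transcript starts equalled a RefSeq start of GRCh38.p14, so positions are read as GRCh38 and counted from 1. The peak caller is not given in the sources used here. Per the file headers, peaks came from the authors with a ratio (fold enrichment of IP over input) and scores (log10 of p and of adjusted p), in 1 list per condition, so replicates were pooled or merged. Per the file headers, the authors' table of differential peaks gave log2 values, p-values, a score (log10 of adjusted p), FPKM of 6 input libraries and q-values of expression. Its 283 rows with no gene name were left out.

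The deposited log2 was control over knockdown. Of 485 rows that are no members and stood in the knockdown list alone, 471 were below 0. It was turned to knockdown over control.

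Blocks were compared with bedtools 2.31.1, and shares have exact 95% binomial intervals, which cover counting error only. Expression was tested with limma 3.58.1 in R 4.3.3 (trend, two-sided, Benjamini-Hochberg over 4515 genes) on log2(FPKM + 1), which understates changes of low genes. On data simulated from these genes, with 200 of 4515 changed, it recovered 31.3%, 89.6% and 98.5% of changes of 0.2, 0.5 and 1 on the log2 scale. There, 9 of 155 calls were unchanged genes. In the data 62.4% of tested genes were called, and the Benjamini-Hochberg limit depends on that share, so recovery in the data is not known from this. Depth is unknown, as low FPKM showed no read steps (smallest 7.49e-07), and no 2 libraries were identical.

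Members and gene lists were chosen with earlier results of these data known. Named were the 8 peaks of highest enrichment per list (adjusted p at most 1e-05, 1 per gene), the 10 largest differential rises and falls (adjusted p at most 0.05, mean of at least 1 FPKM), the 8 largest rises and falls of expression with groups that did not overlap, and up to 2 members per list by differential p. Other list members, the sequences and the genes of most peaks are examples named after their values were seen. Some genes that these rules would name are not reported here.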

Additional observations from a re-analysis of the deposited data

How the results depend on the processing

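Requiring a fold enrichment of at least 4 moved the share of retained-intron peaks to 14.5% of the control and 15.8% of the knockdown list, their median enrichment to 8.22 and 8.87, and their median exonic length to 510 and 390 bases. Requiring an adjusted p of at most 1e-05 moved the shares to 18.8% and 18.3%, the enrichment to 5.05 and 6.23, and the length to 450 and 330.5 bases. The overlap between lists fell to 42.4% of control and 56.2% of knockdown members with 50% reciprocal overlap, to 57.3% and 83.3% when the partner had to be of the retained-intron type, and was 65.8% and 82.0% with a fold enrichment of at least 4. Differential counts stayed within 1.5 times under each alternative run, with 61.2% to 64.1% of rows higher. For expression, a mean of at least 5 FPKM left 236 host genes and 165 calls, 69.9% beside 67.1% of all genes tested so. These were 91 up and 74 down, so 55.2% were up, beside 51.8% of all called genes in that setting. The q-values in the authors' deposited table gave 206, 132 up and 74 down, with no share over all genes taken. Leaving out 1 input library gave 212 to 276 calls, 54.8% to 71.3% of the host genes beside 53.3% to 66.8% of all tested genes. Of these calls, 86 to 115 were up and 126 to 161 down, so 40.4% to 42.7% were up, beside 38.8% to 40.5% of all called genes. The replicate block gave 251 calls, 64.9% beside 60.8% of all tested genes, with 105 up and 146 down. Here 41.8% of the calls were up, beside 39.1% of all called genes. The numbers do not pair the libraries, as same-numbered deviations correlated at -0.077, 0.028 and 0.025, and not every library correlated best with its own number. Of 48 named genes, none called changed direction under any alternative run.

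Peak values have no replicate and no depth, so weak peaks in 1 list alone cannot be told from missed ones. Host-gene expression is known only for genes with a differential peak. Small log2 differences near 0.2 were recovered in 31.3% of simulated cases, but only 200 of 4515 genes were changed there, unlike in the data.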

Other observations

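The authors' deposited table held a further 1308 rows of the retained-intron type whose coordinates were in neither peak list. Of these, 813 were higher after knockdown, 62.2% (95% exact binomial interval 59.5 to 64.8), with a median log2 value of 0.42, and 62.9% lay in a 3' UTR. In all, 1766 rows of the authors' deposited table had this type themselves, of which 62.0% were higher. Among rows of the other types in that table, 58.7% of 3234 protein-coding rows, 55.1% of 405 nonsense-mediated decay rows, 54.3% of 1617 processed transcript rows and 41.2% of 1029 lncRNA rows were higher. These rows share input and IP libraries, so they are given as counts with no test of the difference between types.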
